A study of Mus musculus with 6 samples.

Results

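Small heat shock proteins are chaperones that share an alpha-crystallin domain and hold unfolding proteins in a soluble state without using ATP. Bag3 is a co-chaperone that joins one of them, HSPB8, to HSP70. The genes described here are the 8 rows of the deposited table whose symbol is Hspb1, Hspb2, Hspb3, Hspb6, Hspb7, Hspb8, Cryab or Bag3, out of 46504 features. All 8 passed the filter on low counts and are among the 15448 features tested. PolyA RNA was sequenced from gastrocnemius, the main calf muscle, of 3 restraint libraries and 3 control libraries of wild type mice. Restrained mice were kept in 50 mL tubes for 3 h every 4 days, and both groups carry the label day 4. Strain, age, sex and the hour of tissue collection are not stated in the labels used here. Nothing in the labels ties each library to a mouse of its own, so p-values cover only the spread among the 6 libraries, part or all of which could be technical.

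In striated muscle several of these proteins bind the Z-disc, the structure that anchors actin filaments, and the titin, desmin and filamin C held there. BAG3 and HSPB8 act with HSP70 and the ubiquitin ligase CHIP in chaperone-assisted selective autophagy, which removes filamin damaged by contraction. HSPB2 and HSPB3 form a complex of their own in muscle cells. Heat shock factors, the transcription factors of the heat shock response, bind inverted repeats of the letters GAA.

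Total counts were 44907513, 44973655 and 44290720 in restraint 1 to 3, and 48155940, 44814050 and 51125779 in control 1 to 3. The 8 genes took 0.326% to 0.451% of counts in restraint libraries and 0.199% to 0.233% in control libraries. Mitochondrial genes took 13.2% to 15.1% of counts in restraint libraries and 14.0% to 19.3% in control libraries. Markers of fast fibres were abundant in all 6 libraries, with summed levels of 139000 to 152000 CPM (counts scaled to library size, with TMM factors) in restraint and 139000 to 157000 CPM in control.

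The 8 genes differed widely in transcript level. On the TPM scale (made by the authors, corrected for transcript length and library size), Cryab, the alpha B-crystallin gene, stood at 1909, 2505 and 2967 TPM in restraint 1 to 3 and at 1173, 1171 and 1204 TPM in control 1 to 3. That placed it 53rd, 41st and 37th of all features in the restraint libraries and 77th, 67th and 69th in the control libraries. Hspb6, whose protein also occurs in heart and smooth muscle, came next with 1360 ± 137 TPM in restraint and 850 ± 199 TPM in control (mean ± SD, n = 3 each, as in all group values below). Hspb3 was the lowest of the 8, with 39.1 ± 9.54 TPM in restraint and 41.3 ± 3.62 TPM in control.

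The order of mean TPM in restraint was Cryab, Hspb6, Hspb7, Hspb1, Hspb8, Hspb2, Bag3 and Hspb3. In control it was Cryab, Hspb6, Hspb8, Hspb7, Hspb1, Hspb2, Bag3 and Hspb3, so Hspb8 stood above Hspb7 and Hspb1 in control and below both in restraint. Some neighbours in these orders had overlapping ranges. In restraint these were Hspb7 and Hspb1, Hspb1 and Hspb8, and Hspb2 and Bag3, and in control they were Hspb7 and Hspb1, and Hspb2 and Bag3.

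**Figure D1:**
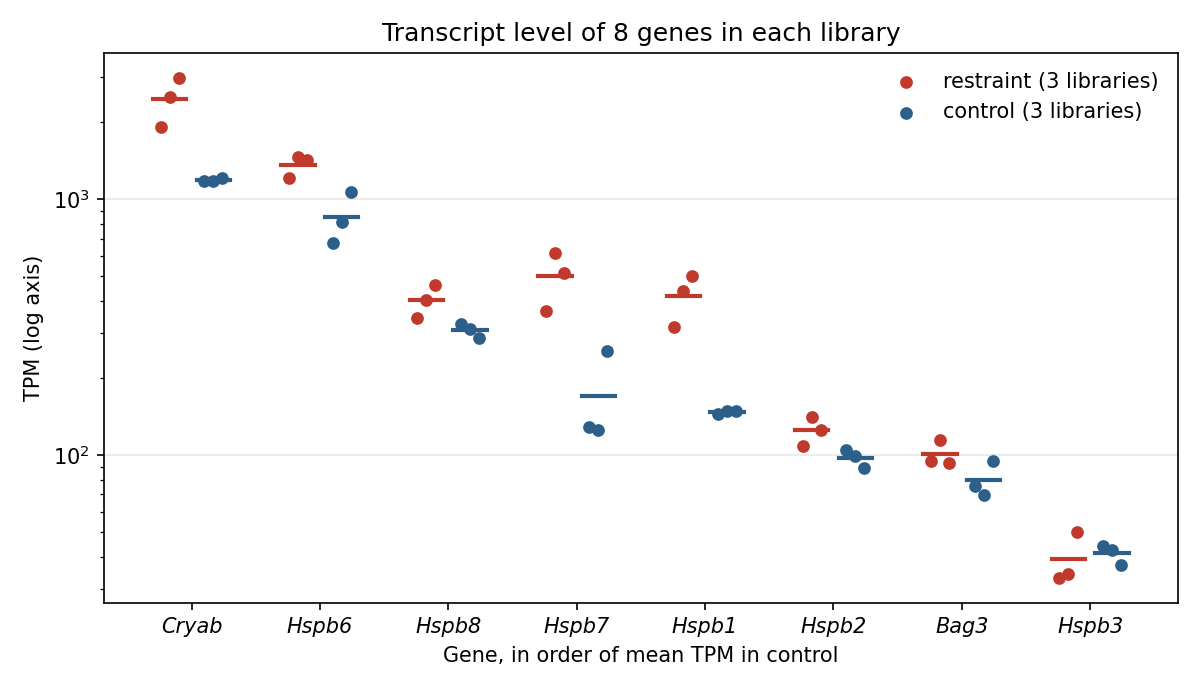
Level of each of the 8 genes in TPM (log axis) for every library, with restraint libraries in red on the left and control libraries in blue on the right of each gene; points are libraries and short lines are group means. The 3 restraint points of Cryab, Hspb6, Hspb8, Hspb7, Hspb1 and Hspb2 lie above all 3 of their control points, while those of Bag3 and Hspb3 overlap with theirs.

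Positions are those of RefSeq on GRCm38.p6, the build of the submitters' processing notes, and all 8 are protein-coding. Hspb1 (gene 15507) lies on the forward strand of chromosome 5 from 135887919 to 135889563, and Hspb7 (gene 29818) on the forward strand of chromosome 4 from 141420779 to 141425310. Cryab (gene 12955) runs forward on chromosome 9 from 50745951 to 50756636. Hspb2 (gene 69253) runs in reverse on the same chromosome from 50751072 to 50752354, inside the span of Cryab. In GENCODE vM21, the start of the transcript Cryab-201 lies 553 bases from the outermost start of Hspb2, and the transcripts Cryab-202 and Cryab-206 start within Hspb2. No source used here states whether counting was by strand, and without it reads of Hspb2 and of these long Cryab forms cannot be told apart. The deposited row of Hspb6 (gene 243912) also lists transcripts of Gm38670, a microRNA gene within it, and Gm38670 has a row of its own as well.

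RefSeq promoter windows on GRCm38.p6, from 250 bases before to 50 bases after the start, were found for 6 of the 8 genes, with a pair of windows for Hspb6. The windows were searched for GAANNTTC and TTCNNGAA, the forms that a pair of inverted GAA units takes, each of which reads the same on both strands. GAANNTTC was found in 5 of these 7 windows, of 5 different genes, against 7.86% of all 32851 windows, and TTCNNGAA in 0 of the 7, against 8.52% of all windows. Either form was held by 5 of the 7 windows, against 15.1% of all windows. By gene, GAANNTTC was held by 5 of the 6, against 9.04% of 27025 genes. Either form was held by 5 of the 6, against 17% of genes. The run of 3 units, GAANNTTCNNGAA or TTCNNGAANNTTC, was found in 0 of the 7 and in 0.603% of all windows. Hspb7 was the gene with no match, and the windows of Cryab and Hspb2 were not used here. Of the 5 genes with a match, 4 shared the letters GAAGTTTC, a form noticed after the matches were seen and held on either strand by 1.21% of all windows. These stretches are shown because they carry that shared form, in capitals, 5′ to 3′ on the strand of the gene:
Hspb1: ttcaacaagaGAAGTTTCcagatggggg
Hspb6: agtaattattGAAGTTTCtaaataagga
Hspb8: gaagccaggaGAAGTTTCtaggctcgcg
Bag3: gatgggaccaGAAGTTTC
They lie at chr5:135887792-135887819 (Hspb1), chr7:30553171-30553198 (Hspb6, second start), chr5:116422845-116422872 on the reverse strand (Hspb8) and chr7:128523615-128523632 (Bag3), where the window ends. The first capital letter lies at -117 in Hspb1 and -120 in Hspb6, before the start, and at position 3 in Hspb8 and 43 in Bag3, within the transcript. A match is a description of letters and not of binding.

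The 250 bases before the start are shown for Hspb1 and Hspb7, the genes with the highest log2 fold changes of the 8 and with the most and the fewest matches, with matches to GAANNTTC in capitals. The Hspb1 stretch is chr5:135887669-135887918 and the Hspb7 stretch is chr4:141420529-141420778.
Hspb1: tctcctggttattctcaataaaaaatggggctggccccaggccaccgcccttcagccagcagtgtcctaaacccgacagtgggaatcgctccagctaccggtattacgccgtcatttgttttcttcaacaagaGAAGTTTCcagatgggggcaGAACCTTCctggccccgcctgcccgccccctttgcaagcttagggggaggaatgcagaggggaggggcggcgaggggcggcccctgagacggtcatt
Hspb7: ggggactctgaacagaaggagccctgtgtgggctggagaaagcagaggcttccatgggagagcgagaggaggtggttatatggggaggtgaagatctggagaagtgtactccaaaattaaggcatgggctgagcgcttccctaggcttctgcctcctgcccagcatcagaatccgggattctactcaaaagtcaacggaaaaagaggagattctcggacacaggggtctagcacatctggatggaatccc

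Restraint was compared with control to ask how these transcript levels differ between the groups. Hspb1, Hspb7 and Cryab rose in restraint, and the other 5 genes did not pass the test. With edgeR's quasi-likelihood test, adjusted by Benjamini-Hochberg over all features, 3 of 8 were called higher and 0 lower, where 1.83% of all tested features were called, 1.26% higher and 0.563% lower. The groups did not overlap, with restraint higher, for 5 of 8 on the CPM scale, against 10.6% of tested features, and with restraint lower for 0 of 8, against 11.1%; in either direction the share of tested features was 21.8%. An unadjusted edgeR p under 0.05 was reached by 5 of the 8, against 15.6% of tested features. DESeq2 called 4, against 5.26% of features, and voom 3, against 1.36%. On the TPM scale 6 of the 8 did not overlap, with restraint higher, against 9.19% of tested features. The median log2 fold change of the 8 was 0.50, against -0.0054 over all tested features. The genes were chosen with earlier results of these data known, so these counts describe them and do not set them apart. In whole muscle, a change in the number of cells of a type and a change in RNA per cell cannot be told apart.

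Hspb1, encoding a small heat shock protein that binds actin filaments, stood at 164, 209 and 269 CPM in restraint 1 to 3 and at 74.8, 88.6 and 68.6 CPM in control 1 to 3. Every restraint library lay above every control library, and the gap between the groups was wider than the range within control. This was a 2.77-fold difference, 1.47 ± 0.18 (SE) on the log2 scale with a 95% interval of 1.05 to 1.89 (edgeR adjusted p = 0.0119). By p it ranked 37th of the 15448 tested features. With each library left out in turn the change ran between 1.27 and 1.63, and the call was lost without control 1 (edgeR adjusted p = 0.0887).

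Hsp25-ps1 (gene 15508), listed in the table as a pseudogene of heat shock protein 25, the mouse name of HSPB1, had a row of its own. It was looked at after its values were seen. It stood at 17.6, 22.1 and 28.1 CPM in restraint 1 to 3 and at 7.92, 8.62 and 7.42 CPM in control 1 to 3, with no overlap, and was called with a log2 fold change of 1.502 ± 0.17 (edgeR adjusted p = 0.0082). Its count was 10.4% to 10.7% of that of Hspb1 in restraint libraries and 9.73% to 10.8% in control libraries. How the counting divided reads among Hspb1 and this copy is uncertain. With both rows summed, the log2 fold change was 1.47 ± 0.18 (edgeR adjusted p = 0.0116).

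Hspb7, known for its expression in heart and skeletal muscle and for binding filamin C, had the highest log2 fold change of the 8. Its levels were 585, 898 and 849 CPM in restraint 1 to 3 and 204, 229 and 360 CPM in control 1 to 3. The groups did not overlap, though control 3 stood well above the other control libraries and restraint 1 well below the other restraint libraries. The difference was 2.94-fold, or 1.55 ± 0.24 on the log2 scale, with a 95% interval of 1.01 to 2.1 (edgeR adjusted p = 0.0208). The call held without control 3 and without restraint 1, and was lost without control 1, control 2, restraint 2 or restraint 3, with edgeR adjusted p of 0.126, 0.0775, 0.0598 and 0.0789. On log2 TPM, limma did not call Hspb7 with a pseudocount of 1 (adjusted p = 0.0534) or 0.1 (adjusted p = 0.115).

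Cryab, whose protein guards desmin filaments, stood at 1045, 1250 and 1653 CPM in restraint 1 to 3 and at 640, 734 and 589 CPM in control 1 to 3. All restraint libraries were higher than all control libraries, and restraint 3 was the highest of the 6. Cryab was 2.01-fold higher in restraint, 1.01 ± 0.18 on the log2 scale with a 95% interval of 0.61 to 1.41 (edgeR adjusted p = 0.0298). Of the fits with 1 library left out, that without restraint 1 kept the call, and the other 5 gave edgeR adjusted p between 0.0680 and 0.170 with changes between 0.81 and 1.10. With limma on log2 TPM, Cryab was called with a pseudocount of 1 and not with 0.1 (adjusted p = 0.0851).

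Hspb6 did not pass, although its groups did not overlap. It stood at 925, 1025 and 1122 CPM in restraint 1 to 3 and at 515, 713 and 723 CPM in control 1 to 3. Its log2 fold change of 0.65 ± 0.15 had an edgeR adjusted p of 0.0782, and the DESeq2 test called it with an adjusted p of 0.0015. Gm38670, the microRNA gene listed within its row, had 17.6 ± 5.55 CPM in restraint and 18.9 ± 3.45 CPM in control in its own row.

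Hspb8 and Bag3, whose proteins work as a complex, did not pass. Hspb8 stood at 360, 388 and 498 CPM in restraint 1 to 3 and at 339, 373 and 266 CPM in control 1 to 3. The groups overlapped, since control 2 exceeded restraint 1. Hspb8 had a log2 fold change of 0.35 ± 0.16, with a 95% interval of -0.027 to 0.72 and an edgeR adjusted p of 0.363. Bag3 stood at 141, 157 and 143 CPM in restraint 1 to 3 and at 113, 120 and 125 CPM in control 1 to 3. These groups did not overlap, and the spread within each was small. For Bag3 the log2 fold change was 0.30 ± 0.098, with a 95% interval of 0.082 to 0.53 and an edgeR adjusted p of 0.179. On the TPM scale the picture was the other way round, with no overlap for Hspb8 (342 to 461 TPM in restraint, 287 to 325 TPM in control) and overlap for Bag3 (92.9 to 115 TPM in restraint, 69.7 to 94.3 TPM in control).

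Hspb2, whose protein binds the myotonic dystrophy kinase DMPK, stood at 53.6, 62.7 and 62.8 CPM in restraint 1 to 3 and at 51.6, 54.8 and 38.5 CPM in control 1 to 3. Control 2 lay above restraint 1, and control 3 was the lowest of the 6. On the TPM scale the groups of Hspb2 did not overlap (108 to 141 TPM in restraint, 88.9 to 105 TPM in control). Its log2 fold change was 0.31 ± 0.14, with a 95% interval of -0.023 to 0.64 and an edgeR adjusted p of 0.360. Hspb3, the partner of Hspb2, stood at 14.99, 14.1 and 23.3 CPM in restraint 1 to 3 and at 19.8, 22.1 and 14.9 CPM in control 1 to 3. Its groups overlapped fully, with a log2 fold change of -0.11 ± 0.22, a 95% interval of -0.60 to 0.38 and an edgeR adjusted p of 0.857. These intervals allow changes of either sign for Hspb2, Hspb3 and Hspb8.

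**Figure D2:**
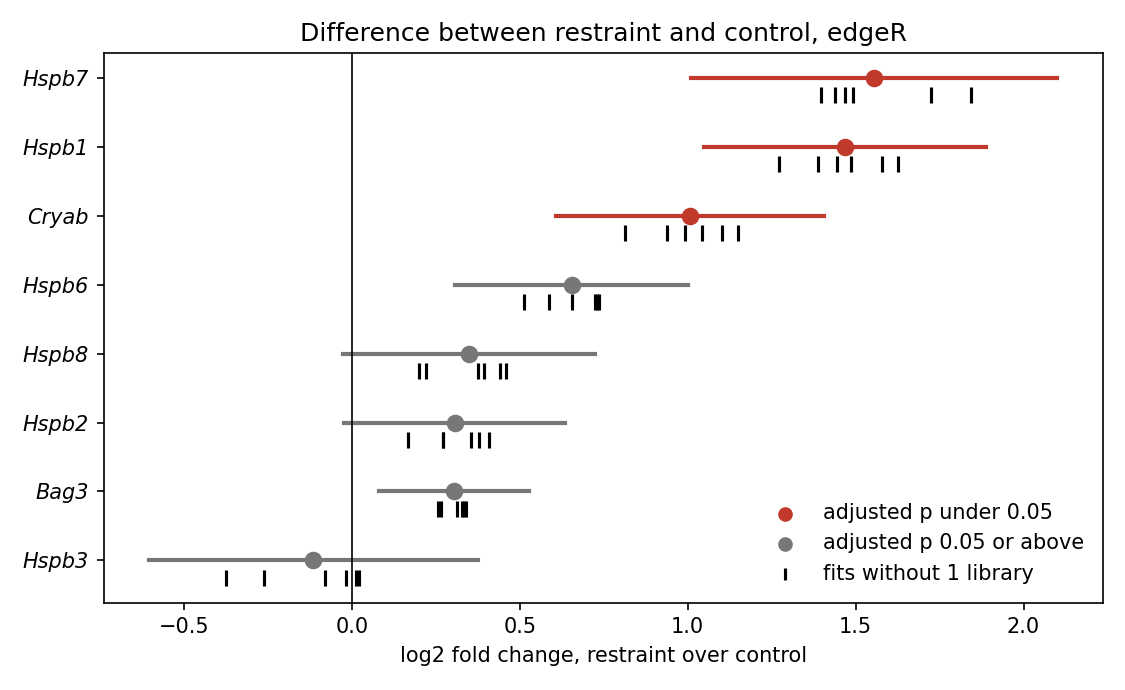
Log2 fold change of restraint over control for the 8 genes by edgeR; dots are estimates, horizontal lines 95% intervals, red marks an adjusted p under 0.05, and short vertical ticks are the estimates with 1 library left out. Hspb7, Hspb1 and Cryab have the highest estimates, at 1.55, 1.47 and 1.01, and the other 5 genes lie between -0.11 and 0.65.

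The order of libraries within a group varied by gene and in part by scale. On both the CPM and the TPM scale, restraint 3 was the highest restraint library for Hspb1, Hspb3, Hspb8 and Cryab, and restraint 2 for Hspb7 and Bag3. For Hspb2 and Hspb6 the highest was restraint 3 in CPM and restraint 2 in TPM. Restraint 1 was the lowest restraint library on both scales for Hspb1, Hspb2, Hspb6, Hspb7, Hspb8 and Cryab. Control 3 was on both scales the highest control library for Hspb6, Hspb7 and Bag3 and the lowest for Hspb2, Hspb3 and Hspb8, while for Hspb1 and Cryab it was the lowest in CPM and the highest in TPM.

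Summed over the 7 small heat shock genes, levels were 4276, 5596 and 6037 TPM in restraint 1 to 3 and 2593, 2706 and 3087 TPM in control 1 to 3. The mean in restraint was 1.90 times that in control. Cryab and Hspb6 together made up most of the sum in every library. Cryab took 46.2 ± 2.56% of it in restraint and 42.5 ± 3.18% in control, and Hspb6 took 25.9 ± 2.33% in restraint and 30.1 ± 4.27% in control, so the shares of both overlapped between the groups. The share of Hspb1 was 7.36% to 8.30% in restraint and 4.82% to 5.56% in control. That of Hspb7 was 8.54% to 11% in restraint and 4.62% to 8.26% in control. Hspb8 took 7.23% to 8.01% in restraint and 9.30% to 12.5% in control, and Hspb3 took 0.609% to 0.830% in restraint and 1.21% to 1.70% in control. Hspb2 took 2.07% to 2.52% in restraint and 2.88% to 4.03% in control. A share of a larger sum can be lower while the level is higher. Hspb8 had 402.5 ± 59.2 TPM in restraint and 307.4 ± 19.2 TPM in control. On the CPM scale the groups of Hspb8 overlapped, and Hspb8 was not called (edgeR adjusted p = 0.363).

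**Figure D3:**
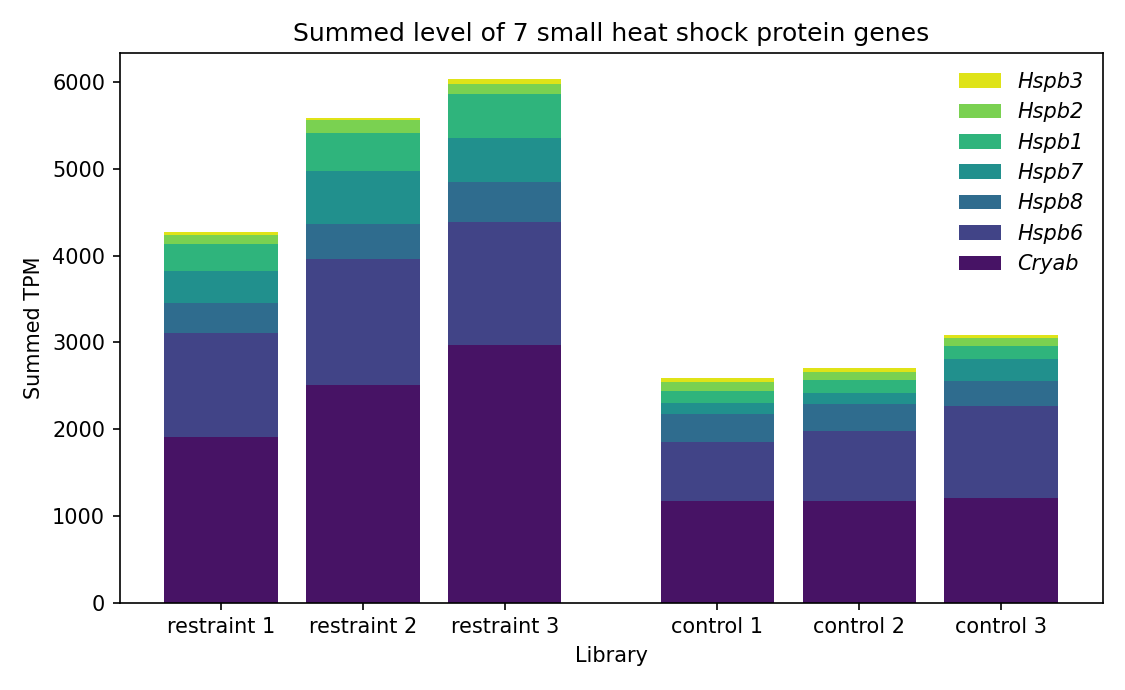
Summed TPM of the 7 small heat shock protein genes in each library, restraint on the left and control on the right, with 1 colour per gene. The restraint columns reach 4276 to 6037 TPM and the control columns 2593 to 3087 TPM, and Cryab and Hspb6 are the thickest segments in every column.

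Ratios of counts between genes of the same library do not depend on its depth, and 5 pairs were compared by a two-sided exact permutation test, whose smallest possible p with 3 against 3 libraries is 0.10. Cryab and Hspb2 run on opposite strands, with Hspb2 inside the RefSeq span of Cryab. Whether counting was by strand is not stated, so the counts of these genes may share reads. The log2 ratio of Cryab to Hspb2 counts was 4.28, 4.32 and 4.72 in restraint 1 to 3 and 3.63, 3.74 and 3.93 in control 1 to 3. The groups did not overlap (exact p = 0.10, 0.167 adjusted over the 5 pairs). In TPM, Cryab exceeded Hspb2 by 19.7 ± 3.45 times in restraint and 12.2 ± 1.21 times in control. Hspb1 to Hspb6 was higher in restraint by 0.78 on the log2 scale and Hspb2 to Hspb3 by 0.45, both without overlap and with the same exact p. Bag3 to Hspb8, the partners of one complex, had a log2 count ratio of -1.48 ± 0.27 in restraint and -1.44 ± 0.30 in control (exact p = 1). Hspb7 to Cryab had -0.76 ± 0.25 in restraint and -1.35 ± 0.55 in control, with overlap through control 3 (exact p = 0.30).

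Likeness of pattern was measured as the root mean square difference between log2 CPM profiles over the 6 libraries, each centred on its own mean, among 10134 named genes of at least moderate level. A low value means that a pair of genes went up and down together by the same amount, group difference included. Among the 8 genes the closest pair was Hspb2 and Hspb8 at 0.108, followed by Hspb2 and Bag3 at 0.198 and Hspb1 and Cryab at 0.231. Hspb3 and Hspb7 were the farthest apart, at 0.98. No gene of the 8 was among the 3 nearest genes of another. The nearest to Hspb7 were Flnc at 0.186, Fbxo32, the ubiquitin ligase atrogin-1, at 0.189, and Lonrf1 at 0.222. Nearest to Hspb1 were Rgcc at 0.167, Csrnp1 at 0.191 and Ctxn3 at 0.212, and nearest to Cryab were Tsc22d3, encoding GILZ, at 0.129, Otulin at 0.133 and Pdlim3 at 0.142. For Hspb6 they were Phlda3 at 0.0383, Hmox1, heme oxygenase 1, at 0.0901 and Lrrc58 at 0.0982. Bag3 lay nearest to Ttll12, Ctsl and Srrm1 (0.0288 to 0.039), Hspb8 to Rps12, Txn1 and Rpl31 (0.0602 to 0.065), Hspb2 to Arrb2, Bcdin3d and Plpp1 (0.0509 to 0.0735) and Hspb3 to Cox20, Tcp11l1 and Krtcap2 (0.0855 to 0.0924). Genes that change little lie close to many others, so distances are not comparable between genes with large and small changes.

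Proteins that the small heat shock proteins bind at the Z-disc and on filaments showed 1 call by edgeR. Of 10 tested, Flnc, encoding filamin C, rose and 0 fell, against 1.26% of tested features called higher and 0.563% lower, with a list median of 0.22. The groups did not overlap in CPM, with restraint higher, for 4 of the 10, against 10.6% of tested features. With restraint lower this held for 0, against 11.1%. DESeq2 called 4 of the 10 and voom 1, and 5 had an unadjusted edgeR p under 0.05. The shares of all tested features were 5.26%, 1.36% and 15.6%. Flnc stood at 864, 1229 and 1033 CPM in restraint 1 to 3 and at 372, 296 and 502 CPM in control 1 to 3. As for Hspb7, restraint 2 was the highest restraint library, restraint 1 the lowest, and control 3 the highest control library. Flnc had a log2 fold change of 1.42 ± 0.21 (edgeR adjusted p = 0.0183), and among the fits with 1 library left out those without control 3 and without restraint 1 kept the call. Des, encoding desmin, had 3743 ± 280 CPM in restraint and 2646 ± 158 CPM in control, or 0.50 ± 0.12 on the log2 scale (edgeR adjusted p = 0.0754), and Dmpk had -0.26 ± 0.13 on that scale.

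Partners of Bag3 in selective autophagy and at its WW domain also showed 1 edgeR call among 14 tested, with 0 lower and a list median of 0.23, against the same 1.83% of tested features called. In CPM, 5 of the 14 did not overlap with restraint higher, against 10.6% of tested features, and 0 with restraint lower, against 11.1%. DESeq2 called 3 of the 14 and voom 1, and 5 had an unadjusted edgeR p under 0.05. The shares of all tested features were 5.26%, 1.36% and 15.6%. Map1lc3a, encoding an autophagosome protein, rose. It stood at 256, 237 and 245 CPM in restraint 1 to 3 and at 139, 144 and 109 CPM in control 1 to 3, a difference of 0.91 ± 0.13 on the log2 scale (edgeR adjusted p = 0.0166). The call was lost without control 1 (edgeR adjusted p = 0.0887) and without restraint 3 (0.0634). Sqstm1, the autophagy receptor p62, had 650 ± 93.6 CPM in restraint and 452 ± 27.4 CPM in control, with an edgeR adjusted p of 0.0909. Hspa8, the constitutive HSP70 of muscle, had a log2 fold change of 0.23 ± 0.11, and Stub1, encoding the ligase CHIP, one of -0.21 ± 0.20. Of the 5 other BAG family genes 0 were called by edgeR, DESeq2 or voom. An unadjusted edgeR p under 0.05 was reached by 1 of the 5, against 15.6% of tested features. The smallest p values among these BAG genes belonged to Bag2 at -0.42 ± 0.17 and Bag4 at -0.21 ± 0.15.

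Other targets of heat shock factors showed 2 edgeR calls among 18 tested, both higher, with a median of 0.20, against 1.26% of tested features called higher. The log2 fold change was positive for 16 of the 18, against 49.1% of tested features. No overlap in CPM, with restraint higher, was seen for 10 of the 18, against 10.6% of tested features. With restraint lower it was seen for 1, Serpinh1 (-0.46), against 11.1%. DESeq2 called 5 of the 18 and voom 1, and 6 had an unadjusted edgeR p under 0.05. The shares of all tested features were 5.26%, 1.36% and 15.6%. Hspa1b, an inducible HSP70, stood at 45.2, 21.2 and 13 CPM in restraint 1 to 3 and at 4.55, 5.12 and 7.42 CPM in control 1 to 3. Restraint 1 was the highest library for Hspa1b, while for Hspb1, Hspb6, Hspb7 and Cryab it was the lowest of the restraint libraries. Hspa1a, a neighbouring gene almost identical in sequence, was also highest in restraint 1, and how the counting divided reads among the pair is uncertain. The log2 fold change of Hspa1a was 1.99 ± 0.42, with no overlap and an edgeR adjusted p of 0.054. Hspa1b rose by 2.21 ± 0.42 as a log2 fold change (edgeR adjusted p = 0.0387), a call that voom did not make (adjusted p = 0.0745). Dnajb4, an HSP40 co-chaperone, rose by 0.48 ± 0.091 (edgeR adjusted p = 0.0387). With 1 library left out, Hspa1b kept its call without restraint 1 and without restraint 3, and Dnajb4 in 0 of the 6 fits, where its edgeR adjusted p ran between 0.0602 and 0.200.

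The heat shock factor list had 4 tested genes, Hsf1, Hsf2, Hsf4 and Hsbp1, the last encoding a heat shock factor binding protein. Of these 0 were called by edgeR or voom and 1 by DESeq2, and 2 had an unadjusted edgeR p under 0.05. The shares of all tested features were 1.83% by edgeR, 1.36% by voom, 5.26% by DESeq2 and 15.6% at that unadjusted p. Hsf1 had 30.9 ± 2.65 CPM in restraint and 26.2 ± 1.43 CPM in control, and Hsf2 had 21.8 ± 2.86 CPM in restraint and 15.3 ± 2.098 CPM in control, neither with overlap, at edgeR adjusted p of 0.320 and 0.122. Of all tested features 10.6% had no overlap with restraint higher. Of the 4 listed small heat shock and crystallin genes outside the 8, 1 passed the filter on low counts, Hspb11. Cryaa, the lens crystallin, and Hspb9 had 0 counts in all 6 libraries, where 3 counts correspond to 0.0551 to 0.0731 CPM, a limit that covers counting error only. Hspb11, whose product belongs to cilia rather than to the chaperones, had 2.53 ± 0.66 CPM in restraint and 2.43 ± 0.63 CPM in control.

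**Figure D4:**
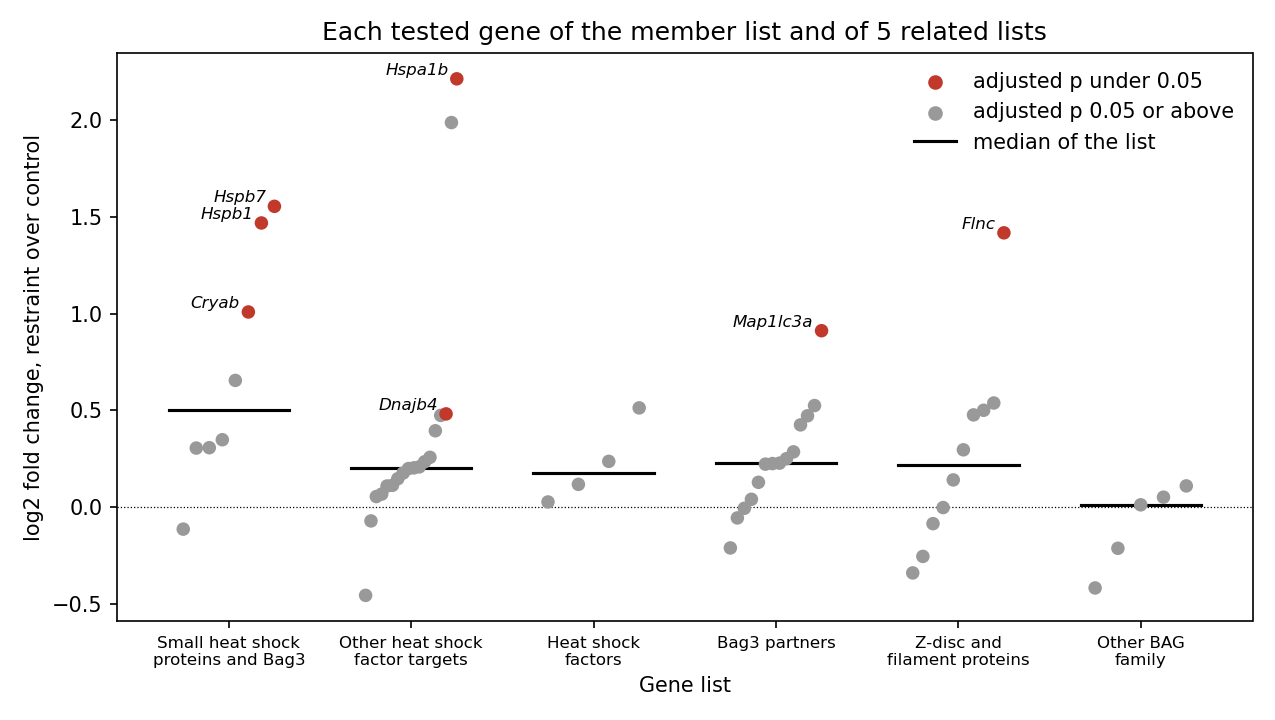
Log2 fold change of restraint over control for each tested gene of the 8 and of 5 related lists, as 1 dot per gene; red marks an adjusted p under 0.05 and black lines are list medians. The list of 8 has 3 red dots and a median of 0.50, the related lists have 0 to 2 red dots, and Hspa1b at 2.21 is the highest called value.

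Small heat shock genes are also expressed in slow fibres, smooth muscle and heart, and markers of these were counted. Of all tested features, edgeR called 1.83%, DESeq2 5.26% and voom 1.36%, and 15.6% had an unadjusted edgeR p under 0.05. The counts of markers below stand beside these shares. Of 8 fast fibre markers, 0 were called by edgeR or voom, 1 by DESeq2 and 1 at an unadjusted edgeR p under 0.05. Positive log2 fold changes were found for 4 of the 8. Casq1 (-0.43) was lower in restraint without overlap, as were 11.1% of tested features. Slow fibre markers, with 0 of 8 called by edgeR or voom, 1 by DESeq2 and 1 at an unadjusted edgeR p under 0.05, summed to 2250 to 2380 CPM in restraint and 2290 to 3200 CPM in control. Smooth muscle markers summed to 230 to 254 CPM in restraint and 234 to 311 CPM in control, and of the 6 Smtn was called, with a log2 fold change of -0.57. Myh11 (-0.18) and Lmod1 (-0.32) were also negative and not called. The other 3 were positive and not called, Acta2 (0.091), Tagln (0.089) and Cnn1 (0.16). Neither the slow fibre nor the smooth muscle sum was above its control range in restraint, and their part in the results was not tested. Cardiac markers summed to 35.5 to 55.8 CPM in restraint and 32.7 to 49.2 CPM in control, with Nppa at 0 in all 6 libraries. Of the 2 cardiac markers tested 0 were called by edgeR, DESeq2 or voom, and 1, Tnnt2, had an unadjusted edgeR p under 0.05. Myh6, the other one tested, had 32.5 ± 1.1 CPM in restraint and 34.6 ± 8.5 CPM in control. Its log2 fold change was -0.091 ± 0.16. Nppa and Tnni3 did not pass the filter on low counts. Tnnt2, cardiac troponin T, stood at 3.15, 21.96 and 13.7 CPM in restraint 1 to 3 and at 2.92, 4.70 and 3.45 CPM in control 1 to 3, a log2 fold change of 1.81 ± 0.56 (edgeR adjusted p = 0.167). The groups overlapped through restraint 1, restraint 2 was the highest, and its part in the results was not tested. Macrophage markers summed to 36.6, 90.8 and 50.9 CPM in restraint 1 to 3 and 37.6, 38.6 and 28.8 CPM in control 1 to 3, all 7 had positive log2 fold changes, and Cd68 was the 1 called by edgeR, with 1 by DESeq2, 0 by voom and 3 at an unadjusted edgeR p under 0.05. Their sum was highest in restraint 2, as were the CPM of Hspb7, Bag3 and Flnc, and its part in those results was not tested. Tendon markers summed to 81.0 to 200 CPM in restraint and 179 to 231 CPM in control, endothelial markers to 156 to 196 CPM in restraint and 172 to 211 CPM in control, and adipocyte markers to 270 to 377 CPM in restraint and 253 to 411 CPM in control. By edgeR and voom 0 genes of these last lists were called. DESeq2 called 2 tendon markers, and an unadjusted edgeR p under 0.05 was reached by 3 tendon, 2 endothelial and 0 adipocyte markers. All 6 tendon and all 5 adipocyte markers had negative log2 fold changes, and 1 of 5 endothelial markers a positive one. Tnmd (-1.06), Kera (-1.34), Fmod (-0.91), Tie1 (-0.42) and Emcn (-0.39) were lower in restraint without overlap, as were 11.1% of tested features. The tendon sum was lowest in restraint 1. The part of these cell types in the results was not tested.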

How the data were processed

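For each of 6 libraries the deposited table gives whole read counts, per the file headers, beside FPKM and TPM that the authors made. The submitters' processing notes name the build GRCm38 (mm10) and the tools StringTie 2.1.3b, HISAT2 2.1.0, Trimmomatic and bcl2fastq 2.20.0, without their roles. Libraries were grouped by the treatment label. Rows with no gene symbol, 825 of 46504 (4.84% to 7.14% of counts), have identifiers of their own and were kept. Columns that name no sample numbered 0.

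The count test was edgeR's quasi-likelihood test (edgeR 4.0.16, R 4.3.3; glmQLFit and glmQLFTest, TMM factors, two-sided, Benjamini-Hochberg at 0.05) on features kept by filterByExpr (at least 10 counts, total 15). SE is the log2 fold change's size over the square root of F. Likeness used genes of average log2 CPM of at least 1, with a prior count of 2. The scripts were tested on simulated data. Alternatives were other scalings and filters, DESeq2 1.42.0, limma 3.58.1 with voom or on log2 TPM or FPKM with a pseudocount, a replicate block, and each library left out.

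The 8 genes, the lists and the tests were chosen with earlier results of these data known. Named genes are the 8, the called members of each related list or, in a list with none, the 2 of smallest p, and the 3 genes nearest to each of the 8. Other list members and markers named, Hsp25-ps1, the GAAGTTTC form and the share and library patterns were chosen after their values were seen. Libraries of a group differed by more than sampling noise in every pair, with chi-square over degrees of freedom of at least 27.2.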

Additional observations from a re-analysis of the deposited data

How the results depend on the processing

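The directions of 7 of the 8 genes held under all alternatives, and that of Hspb3 turned without control 2 (0.014) and without restraint 2 (0.020), both near 0; with each library left out it ran between -0.38 and 0.020. As reported, 282 features, 3 of the 8 genes and 4 genes of the related lists were called. Features called numbered 813 by DESeq2, 88 and 38 on log2 TPM with a pseudocount of 1 and 0.1, and 148 on log2 FPKM; list genes numbered 13, 1, 1 and 2 in those fits. On log2 TPM, 2 of the 8 were called with a pseudocount of 1, Hspb1 and Cryab, and 1 with 0.1, Hspb1. With 1 library left out, features called ran between 16 (without control 1) and 350 (without restraint 1), genes of the 8 between 0 (without control 1) and 3, and list genes between 0 and 5. Summing Hspb1 with its pseudogene, chosen after the data were seen, kept its call. Other scalings and filters kept the calls of Hspb1, Hspb7 and Cryab. A replicate block gave 60 features, 1 of the 8 (Hspb7) and 0 list genes; Hspb1 and Cryab had adjusted p of 0.0542 and 0.129 in it. Deviations of same-numbered libraries correlated at 0.014, -0.20 and -0.21, and not every library correlated best with its own number, so the numbers are not taken to pair the libraries. The cause of these differences was not tested. With 3 libraries per group, changes as small as those of Bag3, Hspb2 and Hspb8 were not called.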
